A study of Mus musculus with 2 samples.

Results

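The genes that encode splicing factors were examined for histone H3 trimethylated at lysine 4 (H3K4me3), a mark found at transcript starts, in lung group 2 innate lymphoid cells (ILC2s) of adult mice. The genes were the protein-coding autosomal genes of the GENCODE annotation whose symbols begin with Srsf and a number, Hnrnp, Snrp, or Sf3a or Sf3b and a number, with Snrpn left out. This gave 50 of 20807 genes, of which 11 were SR protein genes, 19 hnRNP genes, 11 genes of small nuclear ribonucleoprotein (snRNP) proteins and 9 genes of SF3 subunits. The mark was profiled by CATCH-seq, a ChIP-seq method for few cells without fixation, in 1 library of about 3000 ILC2s per group. Both groups were C57BL/6J offspring aged 8 weeks, from 1 experiment with 1 pregnant dam per group. The study used mice of both sexes, and the sex of the mice in these libraries is not stated. Control mothers received alum without ovalbumin (OVA) before mating and PBS intranasally in pregnancy, and asthmatic mothers were sensitized with 100 µg OVA in alum and given 500 µg OVA intranasally at intervals between days 4 and 17 of gestation. With 1 library per group, a difference between mothers cannot be told apart from a difference between 2 libraries, no test was possible, and every interval below covers counting error only.

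Splicing removes introns from the primary transcript. The spliceosome that does so is built from snRNPs, most of them a small RNA held in a ring of Sm proteins (Snrpb, Snrpd1, Snrpd2, Snrpd3, Snrpe, Snrpf and Snrpg) with proteins of its own, such as Snrpa and Snrpc in U1 and Snrpa1 and Snrpb2 in U2. The SF3a and SF3b complexes are parts of the U2 snRNP that hold it at the branch point of the intron. SR proteins (Srsf genes) bind exons and favour the use of nearby splice sites, whereas hnRNPs coat the nascent RNA and often oppose them. Most of these genes are transcribed in nearly all cells, and H3K4me3 at active genes flanks the start, with the start itself often free of nucleosomes. In lymphocytes the family includes Hnrnpll, known as a regulator of the alternative exons of Ptprc (CD45).

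The sequences before the starts of 5 genes are given first. These genes were picked by the rules stated next, and the summaries over all the genes do not rest on them. Sf3a1 and Sf3b6 had a peak at a start in the control list only, and Srsf6, Hnrnpk and Hnrnpf had the largest ratios of joined to single peak width in the asthmatic list. The sequences are from the GRCm38 reference with RefSeq starts, read 5′ to 3′ along the gene and each window of 250 bases before a start shortened to its longest stretch without an annotated exon. Hnrnpf has 4 such windows, and the one shown lies between the peaks of its widest domain, whereas a stretch of 234 bases at another start, far from that domain, is not shown. The other 207 bases of the window shown are annotated as exon of 4933440N22Rik. Capitals mark GC boxes, ETS motifs, CCAAT boxes and a glucocorticoid receptor half-site, whose letters are spelled out with their shares below. Motifs were searched on both strands, and those that adjoin run together in the print. They lie at chr11:4160294-4160349 on the plus strand for Sf3a1, chr12:4817358-4817543 on the plus strand for Sf3b6, chr2:162931258-162931507 on the plus strand for Srsf6, chr13:58402143-58402247 on the minus strand for Hnrnpk and chr6:117907761-117907803 on the plus strand for Hnrnpf. The window of Srsf12, the third gene in the control list only, was annotated as exon throughout and is not shown.
Sf3a1: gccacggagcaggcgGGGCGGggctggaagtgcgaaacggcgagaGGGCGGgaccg
Sf3b6: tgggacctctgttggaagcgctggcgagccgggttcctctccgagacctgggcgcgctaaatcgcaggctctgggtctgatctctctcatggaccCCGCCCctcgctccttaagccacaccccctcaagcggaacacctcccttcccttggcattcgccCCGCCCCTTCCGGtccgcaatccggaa
Srsf6: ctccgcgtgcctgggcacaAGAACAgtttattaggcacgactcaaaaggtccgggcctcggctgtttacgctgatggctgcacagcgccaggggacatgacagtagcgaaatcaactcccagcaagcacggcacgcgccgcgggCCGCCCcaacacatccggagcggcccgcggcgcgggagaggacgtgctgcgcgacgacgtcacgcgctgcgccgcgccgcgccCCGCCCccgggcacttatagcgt
Hnrnpk: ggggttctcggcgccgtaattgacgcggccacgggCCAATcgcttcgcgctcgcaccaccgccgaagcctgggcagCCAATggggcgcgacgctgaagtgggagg
Hnrnpf: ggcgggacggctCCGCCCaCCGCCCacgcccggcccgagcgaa

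Of the splicing factor genes 44 had a RefSeq window of 250 bases before to 50 bases after a start, 58 windows in all. Their median GC content was 61.8% (48.3 to 79.7%), against 57.3% over 19174 windows of all coding genes and 61.7% over the windows of genes with a start peak in the control list. The median ratio of observed to expected CpG was 0.953, against 0.601 over all windows and 0.777 at genes with a start peak. The lowest GC content was at Hnrnpa1 (48.3%) and the highest at Hnrnpa0 (79.7%). The ETS motif CCGGAAG was present in 21 of 58 windows (36.2%, exact Clopper-Pearson 95% interval 24.0 to 49.9%), against 12.1% of all windows and 19.1% of those at genes with a start peak. Windows with this motif included those of Sf3a1, Sf3a2, Sf3a3, Sf3b2, Sf3b3, Sf3b6, Snrpc, Snrpe and Snrpg. The GC box GGGCGG was in 42 windows (72.4%, 59.1 to 83.3%), against 48.3% of all windows and 64.6% at genes with a start peak. The glucocorticoid receptor half-site AGAACA was in 4 windows (6.90%, 1.91 to 16.7%), those of Hnrnpd, Snrpa1, Snrpg and Srsf6, against 15.7% and 11.5%. The shares for NRF1 (GCGCATGC, 5.17% against 3.67% of all windows), the CCAAT box (44.8% against 37.5%), the E-box (CACGTG, 10.3% against 8.04%), the CRE (TGACGTCA, 3.45% against 2.36%), YY1 (AAGATGGCG, 1.72% against 1.91%) and the TATA box (TATAAA, 10.3% against 12.1%) each had an interval that held the share of all windows. These shares change with the window: in 1000 bp around the start YY1 was in 13.8% (6.15 to 25.4%), against 3.66% of all windows and 5.93% at genes with a start peak, the half-site AGAACA in 27.6% (16.7 to 40.9%), against 43.9% and 36.4%, and the ETS motif in 39.7% (27.0 to 53.4%), against 20.4% and 30.3%. These are matches of letters in a fixed window and not sites of binding, and several windows of a gene overlap.

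A start peak was a peak within 1000 bp of any annotated transcript start. Most splicing factor genes had a start peak in both lists as deposited. In offspring of control mothers 48 of 50 had one (96.0%, 86.3 to 99.5%), against 52.5% of all coding genes, and in offspring of asthmatic mothers 45 of 50 had one (90.0%, 78.2 to 96.7%), against 43.7%. All 45 were among the 48, so 90.0% had a start peak in both lists, against 43.1% of all coding genes. Splicing factor genes had a median of 5 annotated starts and all coding genes a median of 3, so that more positions counted as a start for the former. The same holds for the widths below, where a gene took its widest peak and domain over all its starts. The counts of splicing factor genes with a start peak changed with the number of peaks kept. Among the 10000 peaks of highest −log10 p of each list, 38 had one in the control list and 13 in the asthmatic list. The shares of all coding genes within this limit were not counted, so whether the fall is particular to splicing factor genes was not tested.

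Sf3a1, Sf3b6 and Srsf12 had a start peak in the control list only (3 of 50, against 9.37% of all genes), and no splicing factor gene had it in the asthmatic list only (against 0.634%). The control list alone held 25 of the genes when each list was limited to its 10000 peaks of highest −log10 p, and 5 at a −log10 q of at least 5. All coding genes were not counted at these settings, so these counts have no share to stand beside. The 9.37% belongs to the full lists. Of the 48 genes with a start peak in the control list, 93.8% (82.8 to 98.7%) kept it in the other list, against 82.1% of all coding genes. Sf3a1, a subunit of SF3a, had a peak of 268 bp from 78 to 345 bp after its principal start, with a −log10 q of 10.4 and 20 fragments at the summit (exact Poisson 95% interval 12.2 to 30.9). In the asthmatic list the nearest peak was 9355 bp from a start. Sf3b6, the SF3b subunit that lies at the branch point adenosine, had a peak of 303 bp before and one of 313 bp after its start, the latter with a −log10 q of 14.1 and 23 fragments (14.6 to 34.5), and the nearest asthmatic peak was 16705 bp away. Srsf12, a less studied SR-related protein, had a single peak of 438 bp with 14 fragments (7.65 to 23.5) and a −log10 q of 6.21, the lowest among the splicing factor genes of that list, and the nearest asthmatic peak was 19629 bp away. Among all peaks of the control list those of Sf3a1, Sf3b6 and Srsf12 stood at the 68.9th, 83.7th and 31.7th percentile of −log10 q.

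Hnrnpa1 and Sf3b5 had no start peak in either list. Hnrnpa1, an abundant hnRNP that silences exons, lies at chr15:103240432-103246692 on the plus strand, and the nearest peaks were 32384 bp and 32456 bp from its starts in the control and asthmatic lists. Sf3b5, a small SF3b subunit, lies at chr10:13005343-13009183 on the plus strand with 1 annotated start, and the nearest peaks were 1608 bp and 1561 bp before it in the control and asthmatic lists. Of 76 stretches of 75 bases taken around the principal start, 3 at Hnrnpa1 and 0 at Sf3b5 occurred again unaltered at another place in the assembled genome, and 40 of the 50 genes had no such stretch. What the missing peaks say about the transcription of these genes was not measured here.

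**Figure D1:**
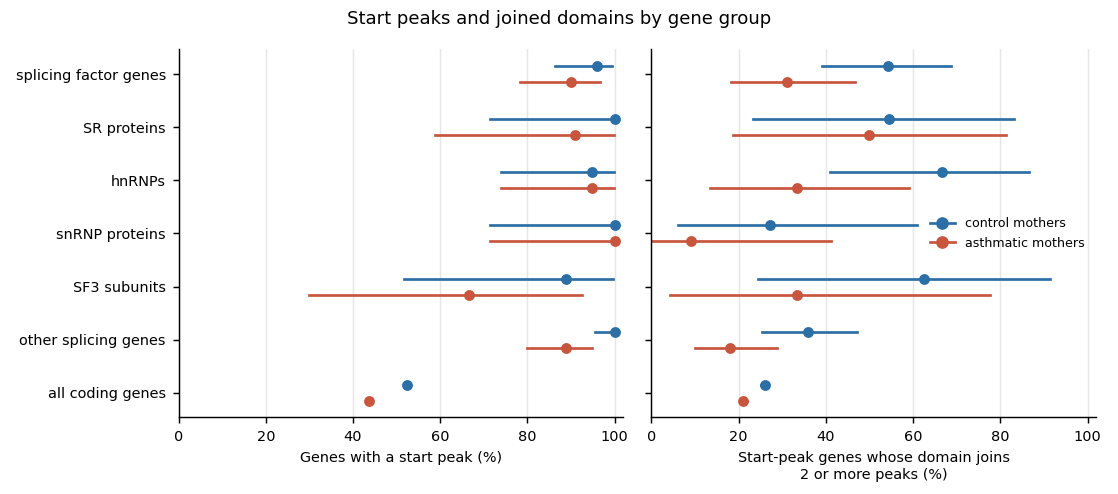
Left, percentage of genes with a peak within 1000 bp of a start; right, percentage of those genes whose domain joins 2 or more peaks, for the control list (blue) and the asthmatic list (red), with exact 95% intervals as lines. The splicing factor genes lie at 96.0% and 90.0% on the left and at 54.2% and 31.1% on the right, against 52.5%, 43.7%, 26.0% and 21.0% for all coding genes.

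A longer list of 81 other splicing genes, among them the Snrnp, Prpf, Lsm and U2AF genes, was set beside them. All 81 had a start peak in the control list and 72 (88.9%, 80.0 to 94.8%) in the asthmatic list, so that 9 had it in the control list only (11.1%, against 9.37% of all coding genes). The share of joined domains of 2 or more peaks was 35.8% and 18.1% in this list, below the 54.2% and 31.1% of the splicing factor genes. The 9 genes were Dhx8, Eftud2, Lsm8, Magoh, Prpf38a, Rbm8a, Snrnp25, U2af1l4 and U2af2. Magoh and Rbm8a encode core proteins of the exon junction complex, and Eif4a3, which encodes another, had a start peak in both lists, with joined widths of 1062 and 391 bp.

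The widest single start peak of a splicing factor gene was 607 bp at the median in the control list, with a range of 268 to 1125 bp, and 373 bp in the asthmatic list, with a range of 158 to 1330 bp. Over all coding genes the medians were 546 and 353 bp. When peaks at most 1000 bp apart were joined, the median rose to 882 bp in the control list and to 478 bp in the asthmatic list, against 667 and 410 bp over all coding genes. A joined domain of 2 or more peaks was present at 26 of 48 genes in the control list (54.2%), against 26.0% of all coding genes with a start peak, and at 14 of 45 in the asthmatic list (31.1%), against 21.0%. These counts were 5 and 0 among the 10000 peaks of highest −log10 p of each list, and 21 and 7 with peaks joined only up to 300 bp apart. At these settings all coding genes were not counted, so whether the excess over them remains was not tested. The median ratio of joined to single width was 1.52 in the control list and 1.00 in the asthmatic list, and 1.00 in both over all coding genes. The control value was 1.013 with peaks joined up to 500 bp apart, and 1.00 with 300 bp, with a −log10 q of at least 5 or among the 10000 peaks of highest −log10 p.

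The families varied in how their domains were built, with few genes in each. They also varied in annotated starts, with medians of 9 for hnRNP, 6 for SR protein, 5 for snRNP protein and 4 for SF3 genes. A gene took its widest domain over all its starts, and the part of this in the widths was not tested. The hnRNP genes had the widest joined domains, with medians of 1326.5 bp in the control list and 668 bp in the asthmatic list, and 12 of 18 and 6 of 18 of them joined 2 or more peaks. SR protein genes had medians of 877 and 552 bp, with 6 of 11 and 5 of 10 joined. SF3 genes had medians of 812.5 and 417 bp, with 5 of 8 and 2 of 6 joined. The snRNP protein genes had the narrowest, with medians of 527 and 367 bp, and 3 of 11 (27.3%, against 26.0% of all coding genes) and 1 of 11 (9.09%, against 21.0%) joined. The median −log10 q of snRNP protein genes lay at the 94.6th percentile of the control list, against 83.1 for SR protein genes, 85.0 for hnRNP genes and 87.0 for SF3 genes. In the asthmatic list the places were 73.8, 71.0, 66.7 and 75.4 by −log10 q, and 84.4, 79.5, 69.5 and 82.4 by fold.

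**Figure D2:**
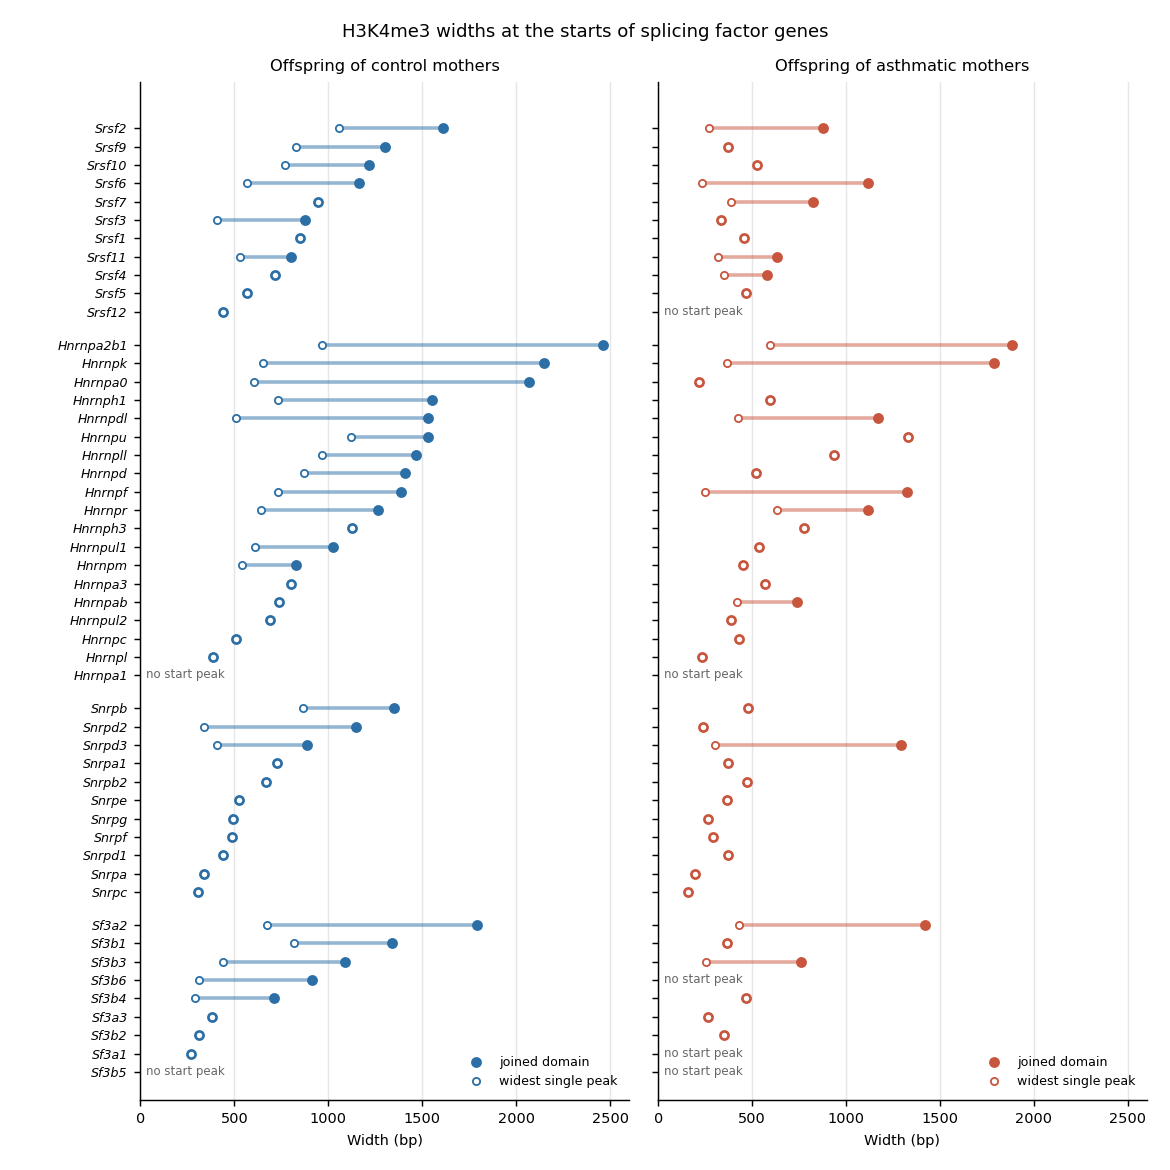
Width in bp of the widest single start peak (open circles) and of the joined domain (filled circles) at each of the 50 genes in the control list (left, blue) and the asthmatic list (right, red), ordered by family and by control joined width; a lone circle is a domain of 1 peak. On the left 12 of 18 hnRNP genes have 2 or more joined peaks and 8 of 11 snRNP protein genes a lone circle.

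Hnrnpa2b1, an hnRNP that binds RNA for transport as well as splicing, had the widest domain in both lists, 2465 bp of 3 peaks in the control list and 1882 bp of 2 peaks in the asthmatic list. Hnrnpk, which binds C-rich RNA, followed with 2150 bp of 4 peaks and 1787 bp of 3 peaks. Its widest single peaks were 654 and 368 bp, so joining widened the domain 3.29-fold and 4.86-fold. Both genes have a neighbour whose start lies inside the domain, Cbx3 at Hnrnpa2b1 and Rmi1 at Hnrnpk. Hnrnpa0, an hnRNP of AU-rich RNA, had 2071 bp of 4 peaks in the control list with no other coding gene's start inside it. Sf3a2, the SF3a subunit next to Plekhj1, had 1794 and 1421 bp, and Srsf2 (SC35), next to Mfsd11, had 1612 and 879 bp. Hnrnpu, which also serves as a nuclear scaffold protein, had 1529 bp in the control list from peaks of 1123 and 254 bp, and a single peak of 1330 bp in the asthmatic list, the widest single start peak of any splicing factor gene there.

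A start of another coding gene lay inside the joined domain at 9 of 48 splicing factor genes in the control list (18.8%), as it did at 18.8% of all coding genes with a start peak, and at 7 of 45 (15.6%, against 13.3%) in the asthmatic list. The 9 were Hnrnpa2b1, Hnrnpd, Hnrnpk, Sf3a2, Sf3b3, Snrpd2, Snrpd3, Srsf11 and Srsf2, and each of their domains joined 2 or more peaks. The 7 asthmatic domains also joined 2 or more peaks. A domain that reaches farther takes in more starts, so leaving such genes out removes a larger share of joined than of single domains. Among genes without such a start, 17 of 39 control domains joined 2 or more peaks (43.6%, against 18.4% of all coding genes). In the asthmatic list 7 of 38 did (18.4%, against 15.5%), a share near that of all coding genes.

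The largest ratios of joined to single width in the control list were at Hnrnpa0 (3.42), Snrpd2 (3.41), Hnrnpk (3.29), Hnrnpdl (3.02) and Sf3b6 (2.91). Snrpd2, an Sm protein gene, had peaks of 336 and 242 bp in a domain of 1145 bp, and the wider of them lay from -814 to -479 bp relative to its start, on the side of Qpctl. Hnrnpdl, a paralogue of Hnrnpd, had peaks of 197, 386 and 507 bp in a domain of 1529 bp. In the asthmatic list the largest ratios were at Hnrnpf (5.29), Hnrnpk (4.86), Srsf6 (4.77), Snrpd3 (4.27) and Sf3a2 (3.28). Srsf6, whose sequence is shown above, had peaks of 156, 234 and 234 bp in a domain of 1115 bp, against peaks of 569 and 390 bp in a domain of 1162 bp in the control list. Its domain was almost as wide in both lists while its single peaks were narrower in the asthmatic list. At Hnrnpf, an hnRNP of G-rich RNA, the widest single start peak (250 bp) was not part of the widest domain (1322 bp), whose widest piece was 301 bp and gave a ratio of 4.39. The same held at Srsf11, where the domains of 801 and 635 bp were 2.36 and 2.43 times their widest piece.

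In the control list the 26 domains held 58 peaks separated by a median of 221.5 bp (84 to 567 bp). The principal start lay inside the domain at 23 genes, and at 16 of them (69.6%, against 58.7% of all joined domains that hold a principal start) it lay in a gap between peaks. At Hnrnpf, Hnrnpll and Hnrnpm each piece lay downstream of the principal start. In the asthmatic list the 14 domains held 30 peaks separated by a median of 346.5 bp (71 to 884 bp), and the start lay inside the domain at 10 genes and in a gap at 9 of them (90.0%, against 64.1%). Each piece lay downstream at Hnrnpab, Hnrnpf, Srsf4 and Srsf7. The strongest start peak had its summit downstream of the principal start at 42 of 48 genes (87.5%, against 82.0%) and 40 of 45 (88.9%, against 81.8%).

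**Figure D3:**
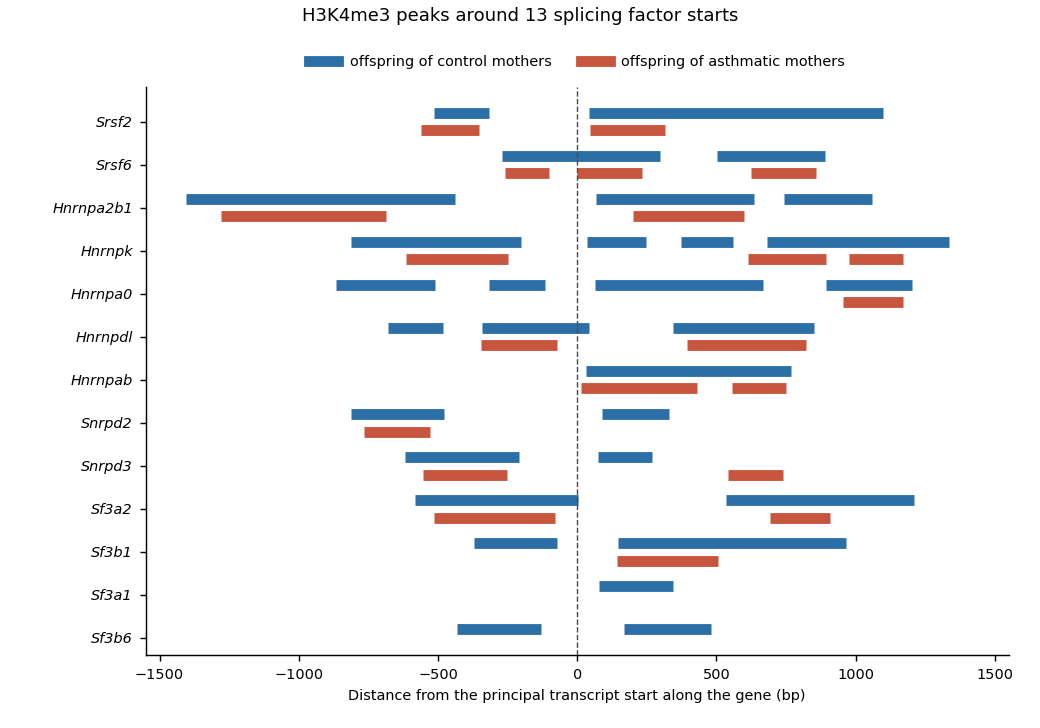
Peaks of the control list (blue) and the asthmatic list (red) around the principal start (dashed line, 0) of 13 splicing factor genes, with distance in bp along the direction of transcription. Gaps lie over the start at Hnrnpa0, Snrpd2 and Sf3b1, Hnrnpa0 has 4 blue peaks and 1 red one, and Sf3a1 and Sf3b6 have no red peak.

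The widest piece of a control domain was overlapped by an asthmatic peak at 24 of 26 genes (92.3%, 74.9 to 99.1%), against 79.6% of all joined domains. The other pieces were overlapped in 12 of 32 cases (37.5%, 21.1 to 56.3%), against 40.7%. In the other direction 14 of 14 widest pieces and 15 of 16 other pieces of asthmatic domains were overlapped in the control list (100% and 93.8%, against 98.3% and 91.1% of all joined domains). The median width of the pieces that were not the widest was 294 bp and their median −log10 q was 8.93, against 648.5 bp and 13.0 for the widest pieces. Of the 25 genes with a joined domain in the control list and a start peak in both, 11 were joined in both lists and 14 had a single peak in the asthmatic list (56.0%, against 55.7% of all coding genes). Of the 20 with a single control peak, Hnrnpab, Srsf4 and Srsf7 were joined in the asthmatic list (15.0%, against 12.4%). Both shares were close to those of all coding genes.

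Most splicing factor genes had narrower peaks in offspring of asthmatic mothers, and the same was so of nearly all coding genes. The single peak was narrower at 42 of 45 genes with a start peak in both lists, against 93.4% of all coding genes, with a median ratio of asthmatic to control width of 0.616 (0.256 to 1.60), against 0.645. The joined domain was narrower at 42 of 45, against 92.3%, with a median ratio of 0.688 (0.105 to 1.46), against 0.664. When only bases under peaks were counted, 44 of 45 were lower (97.8%, against 94.6% of all coding genes), with a median of 0.604, against 0.631. The upstream edge of the joined domain was nearer to or further past the principal start at 41 of 45 genes, moving from a median of 65 bp before it to 75 bp after it, and the downstream edge drew in at 39 of 45, from 850 to 620 bp after it. These were 91.1% and 86.7% of the genes, against 85.1% and 84.7% of all coding genes. The smallest peak in a list was 190 bp in the control and 156 bp in the asthmatic library, and with widths divided by these smallest widths the median ratios were 0.750 for single peaks and 0.839 for joined domains. The lists do not give the fragment length itself.

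Hnrnpa0 had the lowest ratio of joined widths. Its 4 control peaks of 356, 201, 606 and 312 bp spanned from -866 to 1204 bp relative to its single annotated start, and its asthmatic peak of 218 bp lay from 953 to 1170 bp after it, a ratio of 0.105. The 606 bp peak next to the start had no counterpart in the asthmatic list. Snrpd2 fell from 1145 to 240 bp, a ratio of 0.210, and the peak that remained was the one from -767 to -528 bp, on the side of Qpctl. With peaks joined only up to 500 bp apart its ratio was 0.714, and for bases under peaks it was 0.415. Sf3b1, the SF3b subunit that encloses the branch point and is often mutated in blood cancers, went from peaks of 299 and 818 bp in a domain of 1337 bp to a single peak of 366 bp, a ratio of 0.274. At Sf3b1 the upstream piece was the one without a counterpart. When a start peak had to lie within 500 bp of a start, Hnrnpa0 and Snrpd2 joined the genes with a start peak in the control list only, which then numbered 5.

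Snrpd3, the Sm partner of Snrpb, had the highest ratio, with 887 bp in the control list and 1293 bp in the asthmatic list (1.46). This direction rested on a distance between peaks: the asthmatic peaks of 303 and 196 bp lay farther apart than the control peaks of 410 and 193 bp, and the ratio was 0.342 when peaks were joined only up to 500 bp apart and 0.827 for bases under peaks. Sf3b2 had single peaks of 313 and 350 bp (1.12), and Hnrnpab had 738 bp of 1 peak and 740 bp of 2 peaks (1.00). These were the 3 genes with a ratio above 1. Among single peaks, Sf3b4 was the widest by ratio, with 292 bp in the control list and 468 bp in the asthmatic list (1.60), while its joined domain went from 713 to 468 bp.

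**Figure D4:**
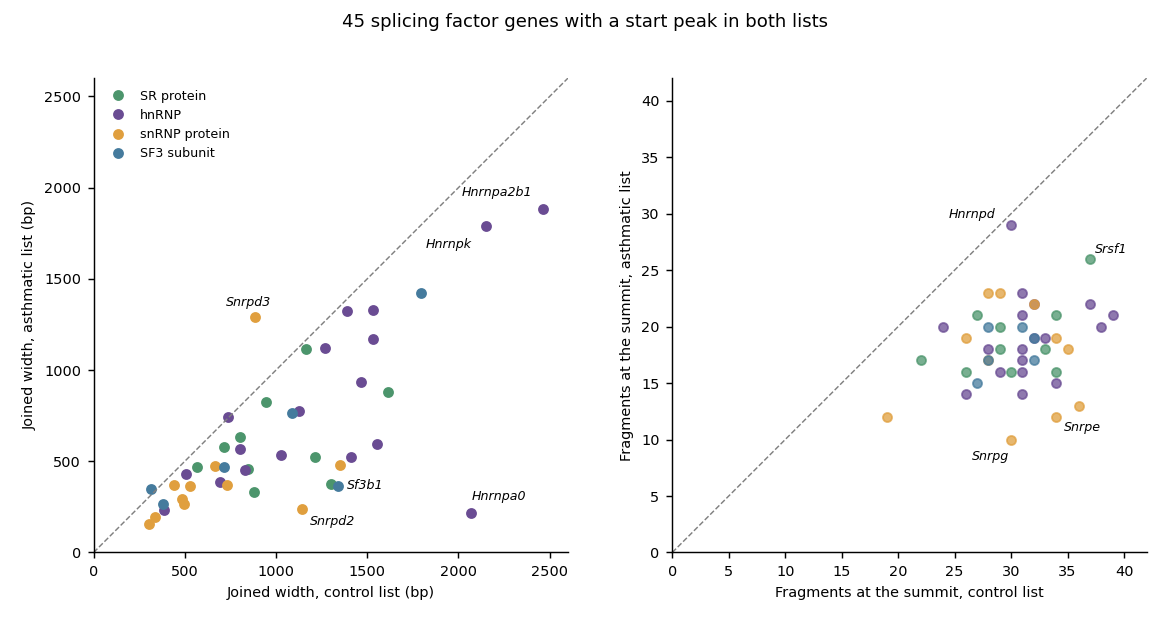
Left, joined width in bp in the control list (x axis) and the asthmatic list (y axis) for 45 genes, coloured by family; right, solved fragments at the summit of the strongest start peak in the same lists, with equality as a dashed line. Only Snrpd3, Sf3b2 and Hnrnpab lie above the line on the left, and none does on the right.

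The strength of a start peak was ranked within its own list by −log10 q, since the authors' values are not scaled between libraries. The strongest start peak of a splicing factor gene lay at a median percentile of 86.5 in the control list and 70.5 in the asthmatic list, against 83.1 and 61.2 over all coding genes with a start peak. Ranked by fold instead, the medians were 77.6 and 76.0, against 81.7 and 71.0, so that in the control list the splicing factor genes stood above all genes by −log10 q and below them by fold. The lists hold 42126 and 51610 peaks, so a percentile is a place in a list and not a level that can be set across lists. The place was lower in the asthmatic list at 39 of 45 genes by −log10 q (86.7%), the same share as over all coding genes (86.7%), and at 29 of 45 by fold (64.4%, against 74.2%). This counts places and not levels. The highest −log10 q in the control list were at Snrpe (25.8), Snrpc (25.1), Hnrnpul1 (23.2), Snrpa (22.3) and Snrpa1 (21.7), so that 4 of the 5 were snRNP protein genes. The lowest were at Srsf12 (6.21), Snrpd2 (8.69) and Hnrnpdl (9.38). In the asthmatic list the highest were at Srsf1 (19.1), a founding SR protein, Hnrnpd (16.9), Snrpd1 and Snrpf (15.8 each) and Snrpa (14.3), and the lowest at Snrpg (3.62), Hnrnpdl (4.82) and Snrpd2 (5.17).

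The places of some of these genes, named for their extreme −log10 q, are given side by side for the lists of unequal length. Snrpe was at the 98.3rd percentile in the control list and the 22.2nd in the asthmatic list, Snrpg at the 94.6th and the 4.32nd, and Snrpc, a U1 protein, at the 98.1st and the 34.1st. Ranked by fold, Snrpe stood at 98.8 and 45.0 and Snrpg at 95.8 and 23.5. Snrpf stood at the 89.5th and 94.4th and Snrpd1 at the 95.2nd and 94.4th percentile.

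The authors' fold and −log10 p of a peak together fix the number of fragments under its summit in a Poisson model. It had a median of 31 (14 to 39) at splicing factor genes in the control list and of 18 (10 to 29) in the asthmatic list, against 26 and 17 over all coding genes with a start peak. Fewer fragments were solved in the asthmatic list at 45 of 45 genes, against 97.3% of all coding genes, with a median ratio of 0.595, against 0.611. Snrpg had 30 fragments (20.2 to 42.8) in the control list and 10 (4.80 to 18.4) in the asthmatic list, and Snrpe had 34 (23.5 to 47.5) and 12 (6.20 to 21.0). These genes were named for extremes of −log10 q, the adjusted form of the −log10 p from which, with the fold, the fragments are solved. Srsf1 had 37 (26.1 to 51.0) and 26 (17.0 to 38.1), and Hnrnpd 30 (20.2 to 42.8) and 29 (19.4 to 41.6). The median solved background at these summits was 3.20 fragments in the control list and 1.97 in the asthmatic list. These numbers are derived, take the peaks as called without an input control, and stand in for a depth that the lists do not give.

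Facts of the whole lists bear on each of these comparisons. The control list held 42126 peaks and the asthmatic list 51610, with median widths of 315 and 249 bp. Of 16 ILC2 marker genes 13 had a start peak in the control list and 9 in the asthmatic list, with Gata3, Gfi1, Il5 and Il7r in the control list only and Icos, Klrg1 and Il13 in neither. Of 32 markers of T cells, B cells, macrophages, neutrophils, epithelial cells, endothelial cells and fibroblasts 3 had one in the control list (Cdh1, Epcam and Kdr) and 1 in the asthmatic list (Sftpb), and those of T cells, B cells, macrophages, neutrophils and fibroblasts had none. The part of these differences between the libraries in the values at splicing factor genes was not tested.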

How the data were processed

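H3K4me3 ChIP-seq was analysed in 2 libraries, 1 per group. The authors trimmed reads with Trim Galore and cutadapt, aligned them to GRCm38 with Bowtie2, handled alignments with SAMtools and removed duplicates with Sambamba. The peak caller, its threshold and any use of the input library are not given in the sources used here, and the study's reporting summary states that no ChIP-seq peaks were called. The columns deposited with each peak are a score, the authors' −log10 q and −log10 p, and a fold, which is a ratio to the background. The lists hold no number of reads per library.

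Peaks were read on GRCm38 and set against GENCODE transcript starts within 1000 bp, with the principal start taken from the APPRIS tag. Peaks at most 1000 bp apart were joined, and a gene took its widest domain that held a start peak. Named genes were those without a start peak in 1 or both lists and those with extreme widths, ratios or −log10 q. Members, lists and rules were chosen with earlier results of these data known. Sequences around starts were counted for copies, and neighbours' starts set apart, after values were seen. Shares have exact Clopper-Pearson and fragments exact Poisson 95% intervals. The joining, overlaps and solving were tested on simulated data. Tools were Python 3.11.15 with scipy 1.17.1, pandas 2.3.3, matplotlib 3.10.9 and numpy 2.4.6. Coverage tracks and other assays were not used here.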

Additional observations from a re-analysis of the deposited data

How the results depend on the processing

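No paired analysis was possible because each group had a single library. Of 122 alternative values of the summaries, 109 stayed within 1.5 times the main value and 13 did not. The genes with a start peak in the control list only numbered 5 within 500 bp of a start, 5 at a −log10 q of at least 5 (Hnrnpdl and Snrpg were added) and 25 among the 10000 peaks of highest −log10 p, where 13 genes kept an asthmatic start peak and 5 control and 0 asthmatic domains joined 2 or more peaks. Shares of all coding genes were not counted at these settings. The median ratio of joined to single width in the control list was 1.00 at a −log10 q of at least 5, among the 10000 peaks, with peaks joined up to 300 bp apart, and without the genes whose domain holds another gene's start, an alternative chosen after the data were seen. Without those genes, 17 control and 7 asthmatic domains joined 2 or more peaks. The control domains of those genes were all joined, so leaving them out lowers these values by construction. Shares beside all coding genes are given above. With peaks joined up to 300 bp apart 7 asthmatic domains joined 2 or more peaks. With 54.2% of control domains joined in the main setting, a smaller share of joined domains moves this median to 1.00. Of 52 alternative ratios of joined widths at 6 single genes, 8 moved by more than 1.5 times, all at Snrpd2, Snrpd3 and Hnrnpab (0.267 among the 10000 peaks). Median single widths, median joined widths, their median ratios between lists, percentiles, fragments, GC content and CpG ratios stayed within 1.5 times the main value under each alternative run. The lists limit every value to peaks above a −log10 q of 2.02 and 2.01, and a gene without a peak may carry the mark below that level.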
